A study of Mus musculus with 2 samples.

Results

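Heat shock proteins and J-domain proteins are the molecular chaperones that fold, refold and hand over proteins in every compartment of the cell. Their genes were taken from the mouse cortex data by symbol alone: those that begin with Hsp90, Hspa, Hspb, Hspd, Hspe or Hsph, other than Hspg2 and pseudogenes, and those of the DNAJA, DNAJB and DNAJC families. The matrix holds 74 such symbols among its 30905 genes, and 67 of them had at least 20 unique molecular identifiers (UMIs, each standing for 1 captured RNA molecule) and are described here. These 67 genes comprise 3 of 3 matching Hsp90 genes, 11 of 11 Hsp70 genes, 3 of 3 Hsp110 genes, the Hsp60 and Hsp10 genes Hspd1 and Hspe1, 6 of 8 small heat shock protein genes, 4 of 4 DNAJA, 11 of 13 DNAJB and 25 of 28 DNAJC genes, and the binding proteins Hspbp1 and Hspbap1, whose symbols also begin with Hspb. Below the limit were Hspb9 with no UMI, which among 118655443 UMIs allows up to 0.0253 counts per 1000000 UMIs (CPM), Dnajc22 with 3, Dnajc5g with 4, Dnajb7, Hspb7 and Dnajc25 with 6 each and Dnajb13 with 17. Just above it were Dnajb8 with 21, Dnajb3 with 22 and Hspb2 with 40.

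The study set mice aged 18 months against mice aged 2 months. Both groups were untreated wild-type C57BL/6 animals, and each was 1 pool of 3 mice. Nuclei were isolated from frozen cortices by detergent lysis and a sucrose step and were sequenced in droplets. Both samples were deposited as 1 matrix whose barcodes end in 1 of 2 suffixes, called library 1 and library 2 here, and the labels do not say which suffix belongs to which age group. The matrix therefore counts as 1 sample. Values of library 1 and library 2 are given side by side, no age is attached to them, and no test was run. Intervals are exact 95% intervals that cover counting error only.

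Library 1 held 8914 barcodes and library 2 held 8587, with medians of 5992 and 6450 UMIs per barcode, and 19 barcode sequences occurred in both. After filtering, 8286 and 7954 nuclei remained. Clusters were named by marker genes, and a class name below stands for nuclei that resemble that cell type by its markers. Classes under 50 nuclei in a library were set aside, which left 10 classes: excitatory neurons (4301 and 4368 nuclei), inhibitory neurons (718 and 611), striatal projection neurons (395 and 233), astrocytes (445 and 429), oligodendrocytes (896 and 425), oligodendrocyte precursors (132 and 156), microglia (213 and 211), endothelial cells (157 and 290), pericytes with smooth muscle cells (64 and 83, called mural cells below) and fibroblasts (174 and 188). Of 84 marker genes, 76 were highest in their own class. The classes were named by these markers, so this count is not a test of the names.

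The exceptions were mostly excitatory markers, of which 4 of 9 were highest in excitatory neurons. Slc17a7, the vesicular glutamate transporter of excitatory neurons, stood at 361 CPM in library 1 and 229 CPM in library 2 in microglia, against 340 and 200 CPM in excitatory neurons. The summed level of Slc17a7, Nrgn, Camk2a and Snap25, 4 genes known for high expression in neurons, was 3339 and 2692 CPM in microglia and 3074 and 2159 CPM in oligodendrocytes, against 3053 and 2414 CPM in excitatory neurons. It was lower in astrocytes (2235 and 1930 CPM), fibroblasts (1990 and 1329 CPM) and endothelial cells (1911 and 1679 CPM). RNA of neuronal genes was thus counted in nuclei of every non-neuronal class, and the chaperone levels of glia and vessel cells below are shown beside it. The neuron classes were also deeper, with median UMIs per nucleus of 6421 to 8435 against 1677 to 3600 in the other classes, and had a lower median share of mitochondrial UMIs, 0.594% to 0.789% against 1.03% to 2.07%.

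Hsp70 proteins bind exposed hydrophobic stretches of unfolded proteins in a cycle driven by ATP. J-domain proteins of the DNAJ families deliver clients and start ATP hydrolysis, Hsp110 proteins and Hspbp1 act as nucleotide exchange factors, and Hsp90 takes over clients such as kinases and steroid receptors late in folding. Small heat shock proteins hold unfolded proteins without ATP. Heat shock factor 1 turns on many of these genes through heat shock elements, whereas the chaperones of the endoplasmic reticulum answer to the unfolded protein response through the endoplasmic reticulum stress element.

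Both elements occur in the promoters of some of these genes. RefSeq promoter windows (GRCm38.p6, 250 bases before to 50 after the RefSeq start) were matched by symbol for 60 of the 74 symbols, not among them Hspa8, Hsp90aa1, Hsp90ab1 and Hspa9. The endoplasmic reticulum stress element was searched as CCAAT, 9 bases of any kind and CCACG, on both strands, and was found in 3 of these 60 genes, against 0.137% of the 27025 genes with a window. The 3 genes are Hspa5, Hsp90b1 and Dnajc3, which encode chaperones of the endoplasmic reticulum, and their windows follow with the element in capitals. In Hspa5 it begins 65 bases before the RefSeq start, in Dnajc3 105 bases before it, and in Hsp90b1 212 and 107 bases before it, the second copy in the opposite orientation. GENCODE places the Hspa5 start farther upstream, so that the element lies after it.
Hspa5 promoter, chr2:34771840-34772139, plus strand: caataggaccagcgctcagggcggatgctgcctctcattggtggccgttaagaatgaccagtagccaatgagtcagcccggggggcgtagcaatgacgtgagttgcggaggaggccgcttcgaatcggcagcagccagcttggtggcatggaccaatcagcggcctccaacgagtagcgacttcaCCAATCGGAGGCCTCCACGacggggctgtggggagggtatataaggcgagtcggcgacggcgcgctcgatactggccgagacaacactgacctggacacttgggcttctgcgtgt
Hsp90b1 promoter, chr10:86705395-86705694, minus strand: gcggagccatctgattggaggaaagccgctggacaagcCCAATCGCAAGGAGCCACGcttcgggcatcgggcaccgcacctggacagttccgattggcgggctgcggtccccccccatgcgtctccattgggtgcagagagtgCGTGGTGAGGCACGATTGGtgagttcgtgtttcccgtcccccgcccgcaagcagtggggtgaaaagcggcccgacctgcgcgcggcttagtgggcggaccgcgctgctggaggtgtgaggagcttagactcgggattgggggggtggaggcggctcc
Dnajc3 promoter, chr14:118937682-118937981, plus strand: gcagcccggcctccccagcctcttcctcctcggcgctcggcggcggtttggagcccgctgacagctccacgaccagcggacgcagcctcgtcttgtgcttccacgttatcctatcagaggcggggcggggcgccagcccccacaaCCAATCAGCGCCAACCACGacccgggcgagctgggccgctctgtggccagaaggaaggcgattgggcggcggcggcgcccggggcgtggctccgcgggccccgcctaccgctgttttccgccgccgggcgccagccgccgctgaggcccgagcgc

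The heat shock element was searched as GAANNTTC or TTCNNGAA, which may overlap, and was found in 16 of the 60 genes, against 4587 of the 27025. A run of 3 units was found in 4 of them, Dnajb6, Hspd1, Hspe1 and Hsph1, against 0.662% of all genes. The windows of Hspe1, Hsph1 and Hspb1 follow with the elements in capitals. Hspe1 carries 2 overlapping runs of 3 units, and its window overlaps a window of the head-to-head gene Hspd1. The runs lie in the shared stretch, so the same bases are counted for both genes. Hsph1 carries a run after its start, and Hspb1 has 2 separate elements 117 and 97 bases before its start. The windows of Hspa12b, Dnajc6, Dnajb2 and Dnajb5, which are described below, hold neither element in these letters. A match of letters is a description of the window, not a site shown to be bound.
Hspe1 promoter, chr1:55087898-55088197, plus strand: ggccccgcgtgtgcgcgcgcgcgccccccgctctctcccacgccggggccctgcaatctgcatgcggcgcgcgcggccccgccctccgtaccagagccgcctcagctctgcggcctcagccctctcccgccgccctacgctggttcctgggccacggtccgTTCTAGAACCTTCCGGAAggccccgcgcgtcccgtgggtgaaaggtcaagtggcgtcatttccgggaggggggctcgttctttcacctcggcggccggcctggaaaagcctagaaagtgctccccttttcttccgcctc
Hsph1 promoter, chr5:149636287-149636586, minus strand: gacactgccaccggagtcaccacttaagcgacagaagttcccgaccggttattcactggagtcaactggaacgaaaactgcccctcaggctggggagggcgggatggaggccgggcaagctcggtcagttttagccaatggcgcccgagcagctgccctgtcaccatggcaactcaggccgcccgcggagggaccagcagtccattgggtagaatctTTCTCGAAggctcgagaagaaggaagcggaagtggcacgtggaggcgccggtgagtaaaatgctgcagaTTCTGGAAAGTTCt
Hspb1 promoter, chr5:135887669-135887968, plus strand: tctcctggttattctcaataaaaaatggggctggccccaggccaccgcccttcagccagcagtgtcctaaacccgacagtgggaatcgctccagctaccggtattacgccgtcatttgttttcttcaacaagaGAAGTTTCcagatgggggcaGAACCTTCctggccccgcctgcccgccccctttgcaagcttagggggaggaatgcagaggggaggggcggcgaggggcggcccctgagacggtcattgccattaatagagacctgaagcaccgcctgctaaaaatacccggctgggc

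Summed over all 74 matching symbols, chaperone RNA was highest in fibroblasts (4378 CPM in library 1 and 3941 CPM in library 2) and lowest in striatal projection neurons (2566 and 2338 CPM). Endothelial cells had 4326 and 3522 CPM, oligodendrocytes 3987 and 3438 CPM, microglia 3862 and 3780 CPM, mural cells 3730 and 3625 CPM, astrocytes 3364 and 2993 CPM, oligodendrocyte precursors 2941 and 2681 CPM, excitatory neurons 2830 and 2430 CPM, and inhibitory neurons 2740 and 2514 CPM. The intervals of fibroblasts and endothelial cells overlap in library 1. In both libraries every neuron class was below every other class for this sum, but the interval of oligodendrocyte precursors overlaps that of excitatory neurons in library 1 and that of inhibitory neurons in library 2. Over the 10 classes the sum ran with the median mitochondrial share (Spearman 0.77 in library 1 and 0.75 in library 2) and against the median UMIs per nucleus (Spearman −0.68 and −0.77), as a description over classes that share their libraries.

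Gene by gene, 58 of the 67 were lower in the mean of the 3 neuron classes than in the mean of the other 7 classes in both libraries, against 60.0% of all genes with at least 20 UMIs. At least 2-fold lower in neurons in both libraries were 9 chaperone genes, against 16.7% of all genes, and none was 2-fold higher, against 3.73% of all genes. The median difference, neurons minus others, was −0.52 in library 1 and −0.59 in library 2 on the log2 scale with 1 CPM added, against −0.29 and −0.42 over all genes. In nuclei of 1500 to 4000 UMIs, which left 44 and 26 inhibitory and 28 and 17 striatal nuclei, the count was 38 against 51.4% of all genes, and the median difference was −0.31 and −0.38 against −0.31 and −0.46 over all genes. In nuclei with a mitochondrial share of 1% to 2%, which left 33 and 45 mural nuclei, it was 48 genes against 54.6%. The part of depth, mitochondrial RNA and RNA of neuronal genes in these differences was not tested.

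Higher in neurons in both libraries were 6 genes, against 22.7% of all genes, and all 6 belong to the DNAJC family: Dnajc6, Dnajc2, Dnajc27, Dnajc11, Dnajc15 and Dnajc16, of which all but Dnajc6 are named after their values were seen. Dnajc6 averaged 287 and 246 CPM over the neuron classes, against 232 and 191 CPM over the others. Dnajc2, which encodes a ribosome-associated J-domain protein, averaged 20.4 and 14.4 CPM, against 16.1 and 11.8 CPM. These differences stayed within 0.056 to 0.36 on the log2 scale.

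The cytosolic Hsp90 genes had their low values in neurons. Hsp90ab1 (chr17:45567775-45573271, minus strand, mm10, GENCODE vM21), the constitutive Hsp90, stood at 308 (264 to 357) CPM in library 1 and 205 (179 to 234) CPM in library 2 in endothelial cells. It was at 266 and 215 CPM in oligodendrocytes, 252 and 265 CPM in mural cells, 237 and 215 CPM in microglia, 208 and 173 CPM in fibroblasts, 188 and 188 CPM in astrocytes, and 130 and 155 CPM in oligodendrocyte precursors. The neuron classes lay at 93.9 to 102 CPM in library 1 and 85.5 to 98.8 CPM in library 2, and their intervals do not reach those of astrocytes. The interval of oligodendrocyte precursors in library 1 (101 to 165) overlaps those of inhibitory and striatal projection neurons. Hsp90aa1, the stress-inducible Hsp90, was at 123 (107 to 141) and 98.4 (81.3 to 118) CPM in oligodendrocytes, against 39.3 (37.3 to 41.3) and 38.0 (36.2 to 40.0) CPM in excitatory neurons. In nuclei of 1500 to 4000 UMIs, Hsp90ab1 averaged 151 and 196 CPM over the neuron classes, against 245 and 222 CPM over the others.

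Hspa8 (chr9:40800984-40810087, plus strand), the constitutive cytosolic Hsp70 that also strips clathrin from vesicles, was likewise low in neurons. It was at 438 (385 to 496) CPM in library 1 and 222 (195 to 252) CPM in library 2 in endothelial cells, 398 and 255 CPM in oligodendrocytes, 385 and 323 CPM in microglia, 315 and 247 CPM in fibroblasts, 309 and 252 CPM in mural cells, 282 and 237 CPM in astrocytes and 204 and 227 CPM in oligodendrocyte precursors. Excitatory neurons had 120 (117 to 124) and 97.4 (94.4 to 100.4) CPM, inhibitory neurons 135 and 113 CPM, and striatal projection neurons 135 and 120 CPM. In library 2 the levels from oligodendrocytes down to endothelial cells have intervals that overlap, so their order is not resolved. Over nuclei of 1500 to 4000 UMIs, neurons averaged 238 and 294 CPM, against 344 and 282 CPM in the other classes, so in library 2 neurons were not lower. A cluster left unnamed for its low UMIs (542 and 732 nuclei, median 2266.5 UMIs, median mitochondrial share 2.29%) had 550 and 476 CPM of Hspa8, and also 5093 and 4046 CPM of the 4 neuron genes.

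Hspa8, Hsp90ab1 and Dnaja1, a DNAJA partner of Hsp70 in the cytosol, varied together. Over 26 clusters the Spearman correlation of Hspa8 with Hsp90ab1 was 0.89 in library 1 and 0.94 in library 2, and that of Dnaja1 with Hspa8 was 0.88 and 0.89, against a median of 0.13 and 0.19 over 1035 pairs of 46 members. Each of the 3 also ran with the mitochondrial share of the cluster, Hspa8 at 0.87 and 0.89, Hsp90ab1 at 0.82 and 0.93 and Dnaja1 at 0.80 in both. Both pairs named here rank highest of the 1035 by the lower of their library values. Standing above the median therefore follows from that rank. These correlations are descriptions over clusters that share their libraries.

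Levels were also counted per UMI of the 4 neuron genes instead of as CPM. Hspa8 then ranged over 108 to 229 per 1000 neuron-gene UMIs across the 7 non-neuronal classes in library 1 and 112 to 186 in library 2, and Hsp90ab1 over 69.3 to 161 and 79.9 to 130. In library 2 both were then highest in fibroblasts. Of 37 chaperone genes with at least 300 UMIs in these classes, 4 were 2-fold above the mean of the other non-neuronal classes in the same class in both libraries, against 28.8% of 6467 genes. They were Hspa12b in endothelial cells, Dnajc6 and Dnajc3 in fibroblasts and Dnajb2 in oligodendrocytes. UMIs of the class where a gene is high count toward the limit of 300.

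**Figure D1:**
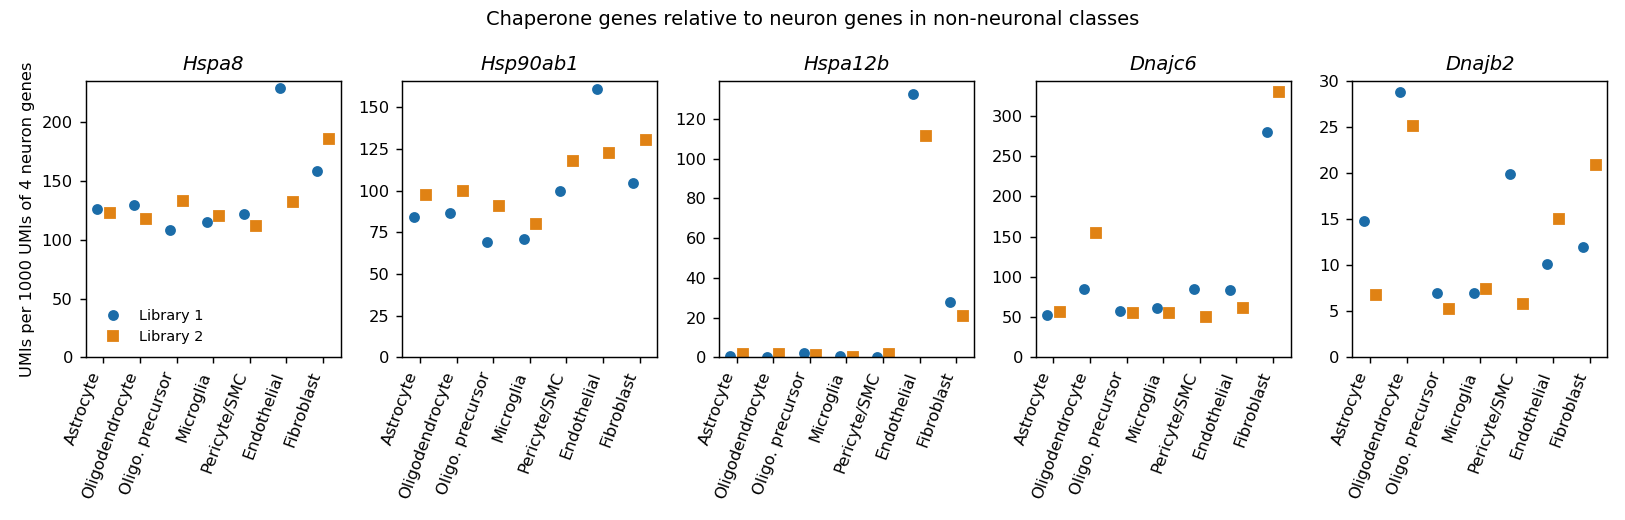
UMIs of 5 chaperone genes per 1000 UMIs of Slc17a7, Nrgn, Camk2a and Snap25 (vertical axes) in the 7 non-neuronal classes (horizontal axes) and both libraries. Hspa8 stays between 108 and 229, while Hspa12b stands out in endothelial cells, Dnajc6 in fibroblasts and Dnajb2 in oligodendrocytes.

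As CPM, 28 of the 67 genes had their highest level in the same class in both libraries, against 42.9% of all genes. With the share of all genes in parentheses, microglia held 12 of them (6.74%), fibroblasts 5 (6.19%), endothelial cells 4 (6.09%), mural cells 4 (4.47%), astrocytes 2 (4.16%), oligodendrocytes 1 (3.86%), and oligodendrocyte precursors (2.67%), excitatory (2.44%), inhibitory (3.17%) and striatal projection neurons (3.15%) none. At least 2-fold above the mean of the other 9 classes in both libraries, with 1 CPM added, were 12 genes, against 27.8% of all genes. Of these, 4 were counted in microglia from few UMIs: Dnajb3, Dnajb8 and Hspb3 from 1 or 2 per library, and Hspa1b from 6 in library 1 and 2 in library 2. Dnajc9, a histone-binding J-domain protein, had 16.4 (6.60 to 33.8) and 17.9 (8.20 to 34.0) CPM in microglia, from 7 and 9 UMIs, against 4.67 and 3.48 CPM in excitatory neurons.

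Hspa12b (chr2:131127280-131146321, plus strand, a distant Hsp70 known from endothelial cells) showed the clearest class difference. Its endothelial level was 253 (213 to 298) CPM in library 1 and 187 (162 to 215) CPM in library 2, from 144 and 200 UMIs. Fibroblasts came next with 55.7 (38.8 to 77.4) and 27.8 (17.8 to 41.4) CPM, and the other 8 classes had at most 5.15 CPM. A UMI of Hspa12b was found in 47.1% and 39.3% of endothelial nuclei, against 0.837% and 1.35% of excitatory nuclei, and in 28.97% and 21.2% of endothelial nuclei after each was thinned to 1500 UMIs. All 3 endothelial subclusters at a finer resolution carried it, at 268, 248 and 203 CPM in library 1 and 190, 141 and 217 CPM in library 2. The gene Gm11037 overlaps it on the same strand, so reads could be split between them.

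Hspb1, the small heat shock protein known as Hsp25 in the mouse, was highest in endothelial cells in library 1, and its endothelial level differed between the libraries. It stood at 192 (157 to 231) CPM in endothelial nuclei of library 1, from 109 UMIs, and at 24.4 (15.9 to 35.7) CPM in those of library 2, from 26 UMIs. Fibroblasts had 28.6 (16.97 to 45.2) and 19.7 (11.5 to 31.6) CPM, so their interval overlaps the endothelial one in library 2, and excitatory neurons had 0.694 and 1.03 CPM. A UMI was found in 28.0% (21.2 to 35.7) of endothelial nuclei in library 1 and 6.90% (4.26 to 10.5) in library 2, and in 15.2% and 2.52% after thinning, against 0.581% and 0.939% of excitatory nuclei unthinned. Without the 1 nucleus with most UMIs, 93 and 24 UMIs were left. The values had the same order in each endothelial subcluster: 174 and 11.7 CPM, 82.8 and 14.6 CPM, and 297 and 60.8 CPM. The 82.8 CPM (22.6 to 212) rests on 4 UMIs and the 14.6 CPM (3.02 to 42.7) on 3 UMIs, so the order is not resolved there. Keeping nuclei with at most 2% mitochondrial UMIs left 92.0 CPM in library 1 and 4.53 CPM in library 2. Under 5 of the alternatives tried, the endothelial level was not 2-fold above the other classes in both libraries.

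Other small heat shock proteins were sparse. Hspb8, which works with the co-chaperone Bag3, reached 22.3 (12.2 to 37.4) and 27.8 (17.8 to 41.4) CPM in fibroblasts, against 0.587 and 0.612 CPM in excitatory neurons. Hspb11, which despite its name encodes a subunit of intraflagellar transport, lay at 12.55 and 10.3 CPM in excitatory neurons and had no class 2-fold above the rest in both libraries. Hspb2 had 7 and 2 UMIs in fibroblasts and overlaps Cryab on the other strand. Hspb3 had 25 and 37 UMIs in excitatory neurons, where its level was 0.668 and 0.906 CPM.

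**Figure D2:**
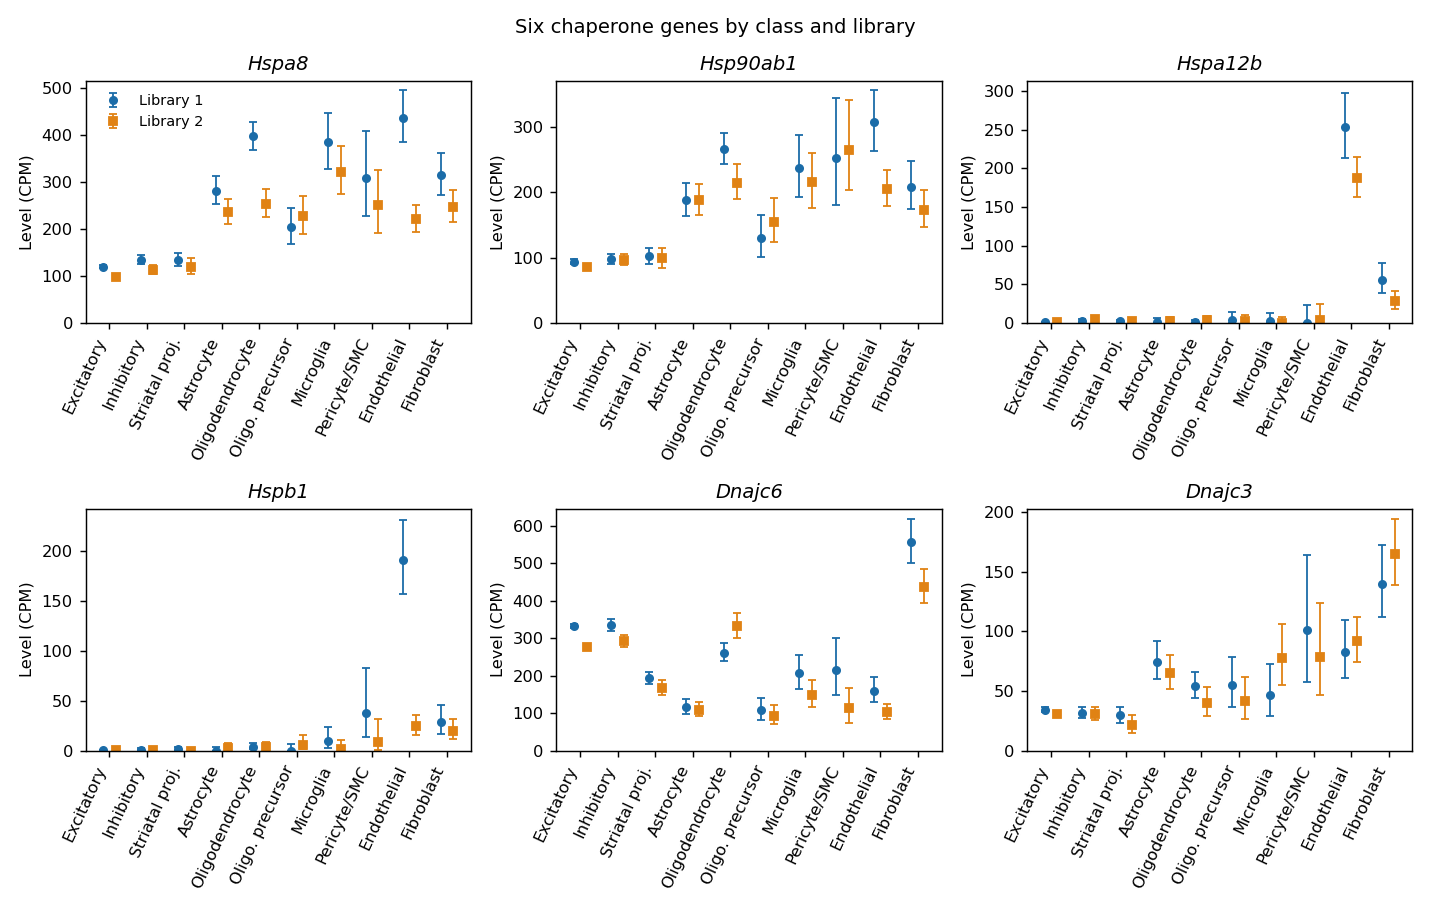
Level in CPM (vertical axes, with exact 95% Poisson intervals) of 6 chaperone genes by class (horizontal axes) and library. Hspa8 and Hsp90ab1 are lowest in the 3 neuron classes, Hspa12b and Hspb1 are highest in endothelial cells, and Dnajc6 and Dnajc3 are highest in fibroblasts.

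The 3 genes with an endoplasmic reticulum stress element were higher in fibroblasts than in excitatory neurons in both libraries. So was the sum over all 74 symbols, and a link between the element and the levels was not tested. Hspa5 (chr2:34771970-34777547, plus strand), which encodes BiP, the Hsp70 of the endoplasmic reticulum, was at 181 (150 to 218) and 151 (126 to 179) CPM in fibroblasts, against 76.9 (74.1 to 79.8) and 78.4 (75.7 to 81.2) CPM in excitatory neurons. Microglia had 101 and 163 CPM, so fibroblasts were not highest in library 2. Hsp90b1, the Hsp90 of the endoplasmic reticulum, was at 131 and 211 CPM in microglia, 192 and 126 CPM in endothelial cells and 177 and 187 CPM in fibroblasts, against 91.4 and 80.3 CPM in excitatory neurons. Dnajc3 (chr14:118937976-118981697, plus strand), a J-domain co-chaperone of BiP, was at 140 (112 to 172) and 165 (139 to 194) CPM in fibroblasts, against 34.3 (32.5 to 36.2) and 30.7 (29.03 to 32.5) CPM in excitatory neurons.

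The fibroblast class joined 2 clusters, between which Hspa5 and Dnajc3 differed in library 1. Cluster 29, led by Bnc2 and Slc47a1, had 276 and 175 CPM of Hspa5 and 257 and 185 CPM of Dnajc3. Cluster 24, led by Ranbp3l and Slc6a20a, had 135 and 130 CPM of Hspa5 and 82.9 and 147 CPM of Dnajc3. In library 2 the counting intervals of the clusters overlap for both genes. Other genes of the endoplasmic reticulum stress response came from a list of 20 that were all measured. Of these, 1 was 2-fold above the other classes in both libraries, against 27.8% of all genes. It was Herpud1, a factor of protein degradation at the endoplasmic reticulum, with 68.6 and 66.5 CPM in endothelial cells against 16.9 and 11.8 CPM in excitatory neurons.

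In mitochondria the Hsp60 gene Hspd1 and its lid, the Hsp10 gene Hspe1, start from opposite strands at overlapping positions (chr1:55077835-55088243, minus strand, and chr1:55088132-55091307, plus strand). Hspd1 ranged from 20.5 to 50.5 CPM over classes in library 1 and from 20.2 to 49.8 CPM in library 2, with 21.7 and 20.2 CPM in excitatory neurons. Hspe1 was highest in endothelial cells, at 31.6 (18.8 to 50.01) and 24.4 (15.9 to 35.7) CPM, against 8.01 (7.13 to 8.97) and 6.86 (6.08 to 7.71) CPM in excitatory neurons. Oligodendrocytes had 23.7 (17.1 to 32.1) and 22.9 (15.1 to 33.3) CPM, so the endothelial rank is not resolved. With a 2% mitochondrial limit the endothelial level of library 2 was 15.8 CPM. Hspa9, the mitochondrial Hsp70, was at 82.0 and 109 CPM in mural cells and 74.7 and 107 CPM in fibroblasts, against 38.9 and 41.6 CPM in excitatory neurons. Of 13 measured genes of mitochondrial import and proteolysis none was 2-fold above the other classes in both libraries, against 27.8% of all genes.

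None of the Hsp110 or DNAJA genes was 2-fold above the other classes in both libraries, against 27.8% of all genes. Hsph1 had 131 (99.2 to 171) and 126 (96.5 to 161) CPM in microglia, against 71.2 (68.5 to 73.9) and 46.8 (44.7 to 49.0) CPM in excitatory neurons. Hspa4 had 110 and 95.6 CPM in microglia, against 68.9 and 56.9 CPM in excitatory neurons. Mural cells had 101 and 122 CPM of Hsph1 and 107 and 104 CPM of Hspa4. Their intervals overlap those of microglia for both genes. Hspa4l was between 73.6 and 122 CPM in every class of library 1 and between 62.8 and 110 CPM in library 2. Dnaja1 had 114 (88.2 to 146) and 68.4 (53.6 to 86.0) CPM in endothelial cells, against 40.7 and 32.1 CPM in excitatory neurons. Dnaja2, another cytosolic partner of Hspa8, was highest in fibroblasts at 102 and 109 CPM, against 63.0 and 51.6 CPM in excitatory neurons. The mitochondrial Dnaja3 lay at 47.5 and 26.2 CPM in endothelial cells and 32.2 and 39.9 CPM in oligodendrocytes, against 23.1 and 20.9 CPM in excitatory neurons, and Dnaja4 at 31.6 and 17.8 CPM in endothelial cells, against 12.7 and 6.71 CPM.

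Dnajc6 (chr4:101496648-101642799, plus strand) encodes auxilin, the J-domain protein that recruits Hspa8 to uncoat clathrin vesicles and is known from neurons. It was nevertheless highest in fibroblasts, at 557 (500 to 618) and 437 (394 to 484) CPM, against 332 (327 to 338) and 277 (272 to 283) CPM in excitatory neurons and 335 and 292 CPM in inhibitory neurons. Oligodendrocytes had 261 and 333 CPM, and oligodendrocyte precursors 108 and 93.6 CPM. The fibroblast level came from cluster 24, with 770 (688 to 858) and 656 (584 to 733) CPM, while cluster 29 had 121 and 178 CPM. The small ependymal cluster, with 15 and 29 nuclei, had 555 (380 to 783) and 595 (471 to 743) CPM. Lepr, the leptin receptor gene on the same strand 74.6 kb after the end of Dnajc6, had 310 and 348 CPM in cluster 24 and 4.84 and 33.0 CPM in cluster 29, but no UMI in the ependymal cluster, which allows up to 52.0 and 22.9 CPM. Leprot, on the same strand 4.92 kb after Dnajc6, had 30.8 and 38.4 CPM in cluster 24 and 48.4 and 35.5 CPM in cluster 29. Without a mitochondrial limit the nuclei called fibroblasts had 110 and 164 CPM of Dnajc6, which was then not 2-fold above the other classes in both libraries. With doublets kept, Dnajc6 was also not counted as 2-fold in both libraries.

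Dnajc5b, a relative of the cysteine string protein of synaptic vesicles, was counted in cluster 29, at 19.4 CPM from 4 UMIs and 50.8 CPM from 20 UMIs. Cluster 24 had no UMI of it in either library, which allows up to 7.10 and 6.41 CPM. Dnajc1, a J-domain protein of the endoplasmic reticulum membrane, was high in every class, from 195 to 388 CPM in library 1 and from 203 to 383 CPM in library 2, with inhibitory neurons lowest in both. Dnajc7, which binds both Hsp70 and Hsp90, ranged from 94.7 to 155 CPM and from 85.2 to 155 CPM, and overlaps Cnp, an oligodendrocyte gene, on the other strand.

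Dnajb2 (chr1:75236406-75245692, plus strand), known as a neuronal J-domain protein that sorts clients to the proteasome, was highest in oligodendrocytes, at 88.7 (75.4 to 104) and 54.3 (41.8 to 69.3) CPM. Excitatory neurons had 13.7 (12.6 to 14.96) and 9.35 (8.44 to 10.3) CPM, and oligodendrocyte precursors 13.2 and 9.002 CPM. At a finer resolution the oligodendrocytes fell into 2 subclusters that nearly followed the libraries, with 861 and 32 nuclei in one and 35 and 390 nuclei in the other. Dnajb2 was at 88.0 and 105 CPM in the first, and at 102 and 51.0 CPM in the second. The 105 CPM (42.1 to 216) rests on 7 UMIs and the 102 CPM (46.5 to 193) on 9 UMIs. Within a library the subclusters are therefore not told apart. Dnajb6, a suppressor of protein aggregation, had 148 and 159 CPM in oligodendrocytes and 152 and 143 CPM in microglia, against 74.8 and 70.6 CPM in excitatory neurons. Dnajb14, a J-domain protein of the endoplasmic reticulum membrane, was at 58.4 and 49.7 CPM in excitatory neurons, with a top level of 116 CPM in endothelial cells of library 1 and 109 CPM in mural cells of library 2.

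Co-chaperones outside these families also differed between classes. From a list of heat shock factors and co-chaperones, 29 of 30 genes were measured. Of these, 13 were highest in the same class in both libraries, against 42.9% of all genes, and 5 were 2-fold above the other classes in both, against 27.8%. Cdc37l1, a relative of the Hsp90 partner that loads kinases, was at 578 (543 to 614) and 489 (450 to 530) CPM in oligodendrocytes, against 96.2 and 78.0 CPM in excitatory neurons. Fkbp5, an Hsp90 co-chaperone induced by glucocorticoids, was at 663 and 601 CPM in fibroblasts, against 68.1 and 40.8 CPM in excitatory neurons. Cryab, a small heat shock protein outside the symbol rule, was at 67.3 and 57.7 CPM in oligodendrocytes, against 7.93 and 5.90 CPM in excitatory neurons. Bag3 in mural cells (37.9 and 26.1 CPM, from 6 UMIs each) and Bag5 in endothelial cells (29.9 and 33.7 CPM) were the other two. Of 13 measured subunits of the chaperonin TRiC and of prefoldin none passed this limit.

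Within neurons the chaperone genes were mostly even across clusters. Over the 12 excitatory clusters, 53 members had at least 300 UMIs, and 3 were 1.5-fold above the median cluster in the same cluster in both libraries, against 20.2% of 11141 genes. Dnajc21, a J-domain protein of ribosome assembly, was at 131 (118 to 145) and 152 (137 to 167) CPM in cluster 3, led by Rorb, against a median of 37.3 and 44.9 CPM over the clusters. Hspa4l was at 176 and 154 CPM in cluster 4, led by Plch1 and Angpt1, against medians of 89.8 and 84.5 CPM. Dnaja4 was at 22.1 and 10.5 CPM in cluster 9, led by Glis3 and Prox1, against medians of 11.97 and 6.53 CPM. Over the 3 inhibitory clusters, 1 of 29 members passed, against 9.39% of 5067 genes: Dnajc15, a J-domain protein of the mitochondrial inner membrane, with 63.5 and 54.7 CPM in cluster 19, led by Btbd11 and Erbb4, against medians of 29.3 and 33.3 CPM. Dnajc21 and Dnajc15 are named after their values were seen.

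**Figure D3:**
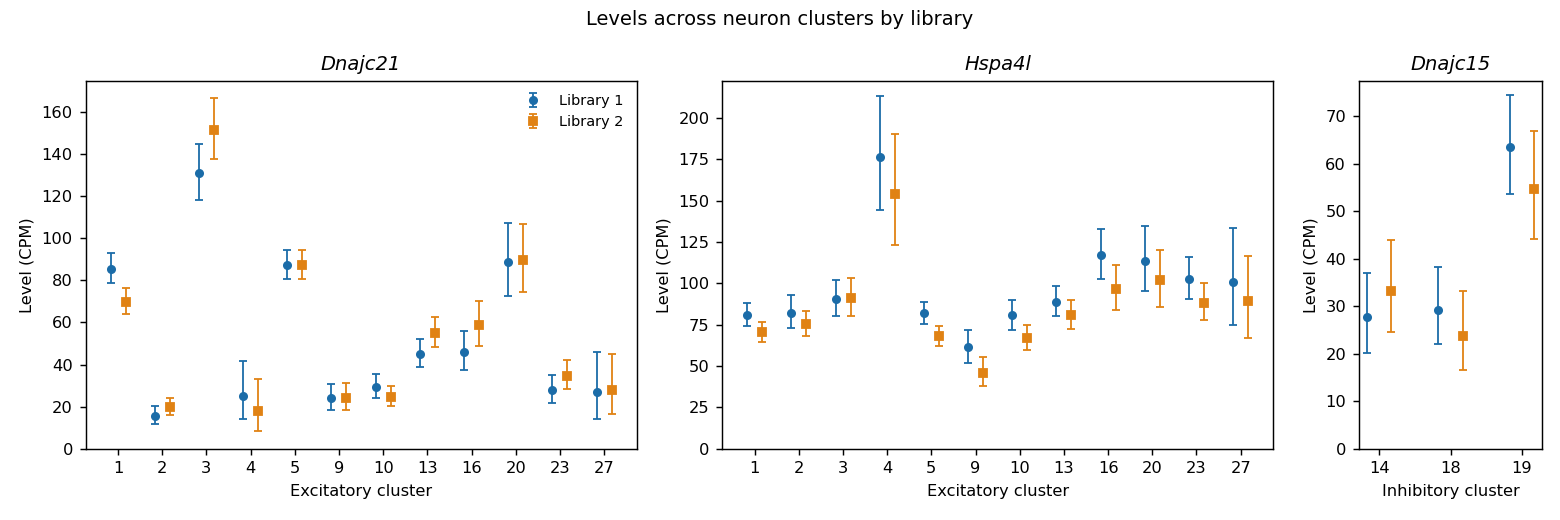
Level in CPM (vertical axes, with exact 95% Poisson intervals) of Dnajc21 and Hspa4l across 12 excitatory clusters and of Dnajc15 across 3 inhibitory clusters (horizontal axes, cluster numbers), by library. Dnajc21 peaks in cluster 3 at 131 and 152 CPM, Hspa4l in cluster 4 and Dnajc15 in cluster 19.

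In means over the classes, 59 of the 67 chaperone genes lay within 1.5-fold between the libraries. The ratio of library 1 to library 2, from means over the 10 classes with 1 CPM added, had a median of 1.08 over the 67 genes, against 1.05 over all genes, and 46 of 67 were above 1, against 58.1% of all genes. At least 1.5-fold higher in library 1 were 7 genes, against 10.2% of all genes: Hspb1 (ratio 3.61), Hspa1b (2.93), Dnajb5 (2.21), Dnajc4 (1.83), Hspb2 (1.52), Dnajb2 (1.51) and Dnajb4 (1.503). Higher in library 2 was 1 gene, Dnajc5b (0.477), against 10.3% of all genes.

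Dnajb5 (chr4:42949814-42959425, plus strand), a cytosolic J-domain protein, differed in the best counted class. It had 37.0 (35.1 to 39.0) CPM from 1386 UMIs in excitatory neurons of library 1 and 11.2 (10.2 to 12.3) CPM from 459 UMIs in those of library 2. Inhibitory neurons had 19.8 (16.3 to 23.7) and 8.37 (5.95 to 11.4) CPM, and oligodendrocytes 41.8 (32.8 to 52.5) and 11.03 (5.87 to 18.9) CPM. In astrocytes the intervals overlap, at 20.4 (13.1 to 30.3) and 16.9 (10.6 to 25.6) CPM.

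The stress-inducible Hsp70 gene Hspa1b had 2.11 (1.67 to 2.63) CPM from 79 UMIs in excitatory neurons of library 1 and 0.735 (0.496 to 1.05) CPM from 30 UMIs in those of library 2. Oligodendrocytes had 10.2 (6.03 to 16.1) and 1.70 (0.206 to 6.13) CPM. Hspa1a is a near-identical copy, so the split of reads between both genes is uncertain. Dnajb4, which is close to Dnajb1 and Dnajb5, had 62.8 (60.3 to 65.4) and 38.8 (36.9 to 40.7) CPM in excitatory neurons, and Hsph1 had 71.2 and 46.8 CPM there. The transcription factor gene Hsf1 had 33.1 (31.3 to 35.0) and 20.3 (18.9 to 21.7) CPM in excitatory neurons. Within excitatory neurons 9 of 64 members were 1.5-fold higher in library 1 (14.3% of all genes) and 1 was higher in library 2 (8.62%). In endothelial cells 15 of 49 were higher in library 1 (18.3%), among them Hspa8, Dnaja1 and Hspb1, and 3 in library 2 (10.0%). In microglia 4 of 43 were higher in library 1 (15.0%) and 7 in library 2 (10.3%), among them Hspa5, Hsp90b1 and Dnajc3.

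**Figure D4:**
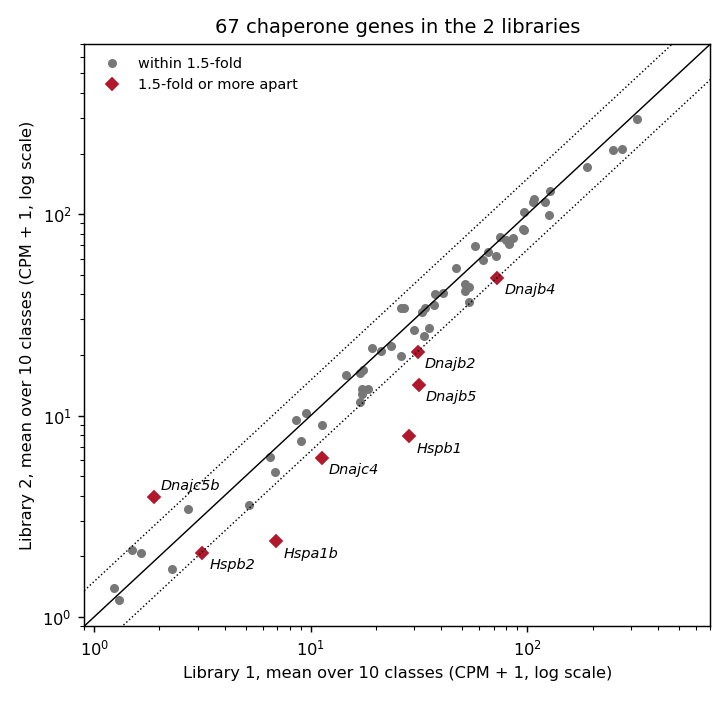
Mean level over 10 classes of the 67 chaperone genes in library 1 (horizontal axis) and library 2 (vertical axis), both as CPM plus 1 on a log scale, with dotted lines at 1.5-fold. Most genes lie between the lines, and Hspb1, Hspa1b and Dnajb5 lie farthest on the side of library 1.

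The other 23 genes had a highest class level between 2.37 and 147 CPM over both libraries, and none of them was 2-fold above the other classes in the same class in both libraries or 1.5-fold apart between the libraries. Of the 67 genes, 25 overlap another counted gene, 4 of them on the same strand and 23 on the other strand. The sources used here do not say whether counting used strand, so their counts may include reads of the partner.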

How the data were processed

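The authors deposited 1 matrix of raw UMI counts per gene and barcode for both samples. Its header names Cell Ranger 3.1.0. The submitters' processing notes name R 4.0.2, Seurat 3.1, Cell Ranger 2.0.1 and the build mm10, and this conflict was not settled. The annotation, cell calling, and strand and intron settings were not given in the sources used here.

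Filters removed barcodes under 200 genes or over 5% mitochondrial UMIs. Scrublet's automatic threshold marked 0 and 2 barcodes and so had not worked, and nuclei with a score of 0.2 or more (305 and 332) were left out. Leiden clustering (Scanpy 1.11.5, resolution 1, 30 components, seed 1) held the chaperone and partner genes out of the 2000 variable genes, unless they were class markers. A cluster needed at least 3 detected markers and a median depth of at least 0.5 of the median unless a marker led it, limits set after the clusters were seen. The largest unnamed cluster held 542 and 732 nuclei. UMIs were summed per class and library and scaled to CPM with exact Poisson intervals, and shares have exact Clopper-Pearson intervals. Ratios have 1 CPM added. Nuclei are not replicates, so intervals cover only counting error.

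No test was run, because the labels do not link barcode suffixes to ages. In each family the 4 members with the highest CPM are named, with every member past the 2-fold or 1.5-fold limits; others are marked as chosen after their values were seen. The members and the partner lists were chosen with earlier results of these data known. Positions are from GENCODE vM21. Protein features were planned and are not used here. The calculations were tested on simulated Poisson counts of genes with many UMIs, which does not cover calls from few UMIs. Alternatives were the doublet, mitochondrial, depth, resolution and naming limits, equal weights, thinning, 10 CPM added and windows of depth and mitochondrial share.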

Additional observations from a re-analysis of the deposited data

How the results depend on the processing

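The number of genes highest in the same class in both libraries stayed within 1.5 times of 28 under every alternative run. The 12 genes counted as 2-fold in both libraries became 6 with doublets kept, 7 with nuclei thinned to 1500 UMIs and 6 with 10 CPM added. Per UMI of the 4 neuron genes, an alternative added after the data were seen, members with at least 300 UMIs in the non-neuronal classes were run. These hold 4 of the 12, all 4 were counted again, and the other 8 were not run. UMIs of the class where a gene is high count toward that limit, so the return of the 4 is no independent support. The genes lost with 10 CPM added are Dnajb3, Dnajb8, Dnajc5b, Dnajc9, Hspa1b and Hspb3, all of low level. Hspb1 was not counted without a mitochondrial limit, with a 2% limit, with equal weights or in the windows of mitochondrial share or depth, and its endothelial level in library 2 was then as low as 2.74 CPM. The 7 genes higher in library 1 became 2 with 10 CPM added, and the 1 gene higher in library 2 became 0 without a mitochondrial limit, in nuclei of 1500 to 4000 UMIs and with 10 CPM added, 2 with equal weights, and 3 after thinning and in nuclei with a mitochondrial share of 1% to 2%. The 58 genes lower in neurons became 38 in nuclei of 1500 to 4000 UMIs. The summed level, averaged over classes, was 3473 CPM in library 1 and 3126 CPM in library 2; it became 3345 and 2997 with doublets kept, 3372 and 3031 with a 2% mitochondrial limit (9 classes, since mural cells fell under 50 nuclei), 3552 and 3229 with equal weights, 3552 and 3240 after thinning, 3622 and 3439 in nuclei of 1500 to 4000 UMIs, and 3256 in library 2 in nuclei with a mitochondrial share of 1% to 2%. Hspa8 of library 2 turned direction in nuclei of 1500 to 4000 UMIs, at 294 CPM over the neuron classes against 282 CPM over the others. The cause of these moves was not tested. No paired analysis was possible because the matrix counts as 1 sample and no label ties its barcodes to a group.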
